A study of Mus musculus with 20 samples.

Results

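The immunoglobulin heavy chain variable segments (Ighv) are a row of related coding pieces on mouse chromosome 12. In the distal colon (DC) of mice fed a Western-style diet with or without resistant potato starch (RPS), 82 of them were expressed. As background, a developing B cell joins a single V segment to a D and a J segment, and all heavy chain mRNA made by that cell and its descendants then carries this segment. The summed reads on a segment therefore count the mRNA of every clone that uses it, and a plasma cell, the antibody-secreting end stage of a B cell, holds far more of this mRNA than a resting B cell. In the intestine most plasma cells make IgA, which is carried across the epithelium into the lumen.

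Of the 26619 genes counted, 104 are Ighv segments of the gene type IG_V_gene in GENCODE vM39, and the 82 with at least 10 counts in at least 1 mouse were kept. The weakest segment kept was Ighv3-4, with 11 counts in its highest mouse, followed by Ighv1-50 and Ighv14-1 with 16 each, whereas Ighv5-2 and Ighv9-2 stayed just outside with 9 each. The 22 segments left out summed to between 3 and 44 counts per mouse. A further 9 segments of the annotation were not analysed here. All 82 lie on the minus strand of chromosome 12, between 158 and 2570.2 kb from Ighj1, the J segment nearest to them.

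The samples were taken from 20 C57BL/6 mice, 1 library each, all weaned onto a Western-style diet, the Total Western Diet (TWD), and kept on it for 6 weeks. The mice then ate the TWD alone (0% RPS) or the TWD with 2, 5 or 10% RPS for 3 weeks, with 5 mice per diet, and a piece of colon near the anal end was used for RNA. The diet was taken from the description label, and for 3 mice the treatment label gives another diet. RS10_717 is 5% RPS by description and 2% RPS by treatment, RS10_725 is 10% and 5%, and RS10_748 is 2% and 10%. The segment tests at each RPS level and over the trend were therefore also run with the treatment label and without these 3 mice, by edgeR and, as an addition chosen after seeing the data, by DESeq2. Group means below follow the description label.

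The libraries held 18429493 to 34974230 counts, from 31254832 to 34974230 in the mice without RPS and from 18429493 to 26595092 in those fed 10% RPS. Levels are given as CPM, a count divided by the library total after scaling by the trimmed mean of M values. The marker lists for colon were all detected, with summed levels per mouse of 3808 to 6951 CPM for 5 colonocyte genes, 5139 to 11099 CPM for 5 smooth muscle genes, 453 to 1212 CPM for 8 plasma cell genes, 14.7 to 168 CPM for 10 B cell genes, 37.9 to 55.5 CPM for 5 germinal centre genes and 6.45 to 14.3 CPM for 6 T cell genes. RS10_721 held 5527 CPM of 8 pancreas acinar genes against 367 to 815 CPM in the other 19 mice. Igha, the constant region of IgA, made up 86.1 to 96.1% of heavy chain constant counts in every mouse.

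The sequences below show the segments on which the results turn, as the coding end of each V exon in GRCm39, read on the minus strand from 5′ to 3′. Capitals mark the bases that differ from the most similar other Ighv segment. Ighv1-82 (chr12:115916158-115916451) and Ighv1-80 (chr12:115875964-115876257) are each other's nearest segment, 96.1% identical over the V exon, and each led a different mouse with a large share of the counts. Ighv1-19 (chr12:114672268-114672561, nearest Ighv1-26) and Ighv1-26 (chr12:114751992-114752285, nearest Ighv1-18) were the top pair of RS10_703. Ighv1-39 (chr12:114878219-114878512, nearest Ighv1-42) had the highest mean share, and Ighv1-42 (chr12:114900733-114901026, nearest Ighv1-43) and Ighv2-5 (chr12:113649102-113649395, nearest Ighv2-4) were the members with a trend over RPS percent. Ighv15-2 (chr12:114528198-114528491) is the least similar to any other, 74.4% identical to Ighv1-9.
Ighv1-82: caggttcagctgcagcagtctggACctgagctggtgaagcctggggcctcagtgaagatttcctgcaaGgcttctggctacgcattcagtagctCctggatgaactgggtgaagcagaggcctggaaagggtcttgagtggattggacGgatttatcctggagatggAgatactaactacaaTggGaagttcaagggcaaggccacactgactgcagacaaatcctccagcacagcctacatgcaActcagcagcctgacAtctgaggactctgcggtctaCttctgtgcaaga
Ighv1-80: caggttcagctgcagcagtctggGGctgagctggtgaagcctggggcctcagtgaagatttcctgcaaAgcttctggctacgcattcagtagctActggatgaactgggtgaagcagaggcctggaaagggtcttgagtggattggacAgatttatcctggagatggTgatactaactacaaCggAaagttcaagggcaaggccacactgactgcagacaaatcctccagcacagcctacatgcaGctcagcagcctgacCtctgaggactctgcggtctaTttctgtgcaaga
Ighv1-19: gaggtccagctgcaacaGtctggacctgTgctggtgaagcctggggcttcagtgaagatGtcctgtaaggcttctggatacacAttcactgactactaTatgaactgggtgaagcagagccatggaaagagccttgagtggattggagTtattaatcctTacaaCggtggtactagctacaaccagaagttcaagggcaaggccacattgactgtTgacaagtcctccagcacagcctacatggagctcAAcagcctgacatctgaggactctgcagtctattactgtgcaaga
Ighv1-26: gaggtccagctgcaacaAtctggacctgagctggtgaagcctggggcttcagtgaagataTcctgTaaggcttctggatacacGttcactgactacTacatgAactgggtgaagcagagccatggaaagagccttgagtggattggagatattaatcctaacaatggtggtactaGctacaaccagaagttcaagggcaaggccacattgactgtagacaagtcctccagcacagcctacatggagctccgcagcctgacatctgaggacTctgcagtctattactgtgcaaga
Ighv1-39: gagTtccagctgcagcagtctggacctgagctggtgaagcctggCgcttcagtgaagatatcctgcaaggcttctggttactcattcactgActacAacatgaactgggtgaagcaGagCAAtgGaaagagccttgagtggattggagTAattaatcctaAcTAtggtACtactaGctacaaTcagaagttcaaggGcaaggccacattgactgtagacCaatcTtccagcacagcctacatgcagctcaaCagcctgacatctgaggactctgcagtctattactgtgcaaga
Ighv1-42: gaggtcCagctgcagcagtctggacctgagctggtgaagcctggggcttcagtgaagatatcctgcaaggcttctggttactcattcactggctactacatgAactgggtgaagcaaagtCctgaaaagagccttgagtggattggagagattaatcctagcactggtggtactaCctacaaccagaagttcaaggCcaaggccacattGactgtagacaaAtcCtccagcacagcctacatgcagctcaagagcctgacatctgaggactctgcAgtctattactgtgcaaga
Ighv2-5: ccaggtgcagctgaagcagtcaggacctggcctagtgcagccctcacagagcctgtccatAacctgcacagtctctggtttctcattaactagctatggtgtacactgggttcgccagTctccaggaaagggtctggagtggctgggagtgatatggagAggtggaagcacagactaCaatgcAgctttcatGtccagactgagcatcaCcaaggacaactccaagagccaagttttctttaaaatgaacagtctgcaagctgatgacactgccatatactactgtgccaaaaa
Ighv15-2: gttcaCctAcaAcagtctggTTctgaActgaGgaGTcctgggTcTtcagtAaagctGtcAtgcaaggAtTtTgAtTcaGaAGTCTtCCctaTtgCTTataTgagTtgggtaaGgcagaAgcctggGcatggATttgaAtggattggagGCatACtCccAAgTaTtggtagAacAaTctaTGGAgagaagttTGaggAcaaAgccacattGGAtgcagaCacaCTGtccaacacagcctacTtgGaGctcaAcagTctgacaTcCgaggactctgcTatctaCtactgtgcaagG

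These similarities bear on the counting, because the reads were 50 bases long and how reads that match several segments were counted is not given in the sources used here. Over the 82 segments, a median of 78.9% of all 50-base windows of the spliced segment occurred nowhere else among Ighv genes and pseudogenes. All windows were unique for 8 segments, and under 50% were unique for 7, down to 32.8% for Ighv1-52. The nearest other segment was a median of 95.1% identical. Among the segments that led mice, the unique share was lowest for Ighv1-26 at 51.0%, whose values are therefore the least certain, and was 85.2% for Ighv1-82, 92.7% for Ighv1-39 and 100% for Ighv15-2.

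The 3 lowest summed Ighv levels were in mice without RPS, and so was the highest. At 0% RPS the sums were 48.5, 412, 30.7, 68.5 and 33.8 CPM in RS10_701, RS10_703, RS10_704, RS10_707 and RS10_708. At 10% RPS they were 240.0, 123, 201, 154 and 102 CPM in RS10_725, RS10_727, RS10_729, RS10_731 and RS10_784. All 5 mice at 10% RPS were above 4 of the 5 mice at 0% RPS and below RS10_703, so the groups overlapped through that mouse. RS10_748, which is 10% RPS by the treatment label, was at 66.7 CPM, below RS10_707 as well. At 2% RPS the sums ran from 50.5 to 280.2 CPM and at 5% RPS from 67.8 to 163 CPM. On the log2 scale the mean sum was 6.08 ± 1.53, 6.64 ± 0.970, 6.78 ± 0.457 and 7.29 ± 0.502 (SD, n = 5 each) at 0, 2, 5 and 10% RPS. In bulk tissue, more cells that carry a segment and more mRNA per cell cannot be told apart.

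RS10_703 held 13016 Ighv counts, against 988 to 2303 in the other mice without RPS. Without it, the mean log2 sum at 0% RPS was 5.43 ± 0.529 (SD, n = 4), and by the description label the 10% RPS mice did not overlap with the 0% RPS mice. By the treatment label they still overlapped, since RS10_748 (66.7 CPM) lay below RS10_707 (68.5 CPM). RS10_703 was also the highest mouse for 17 of the 82 segments, and its summed B cell and plasma cell markers of 138 and 1047 CPM were the highest at 0% RPS. The part of these cell markers in the Ighv level was not tested.

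**Figure D1:**
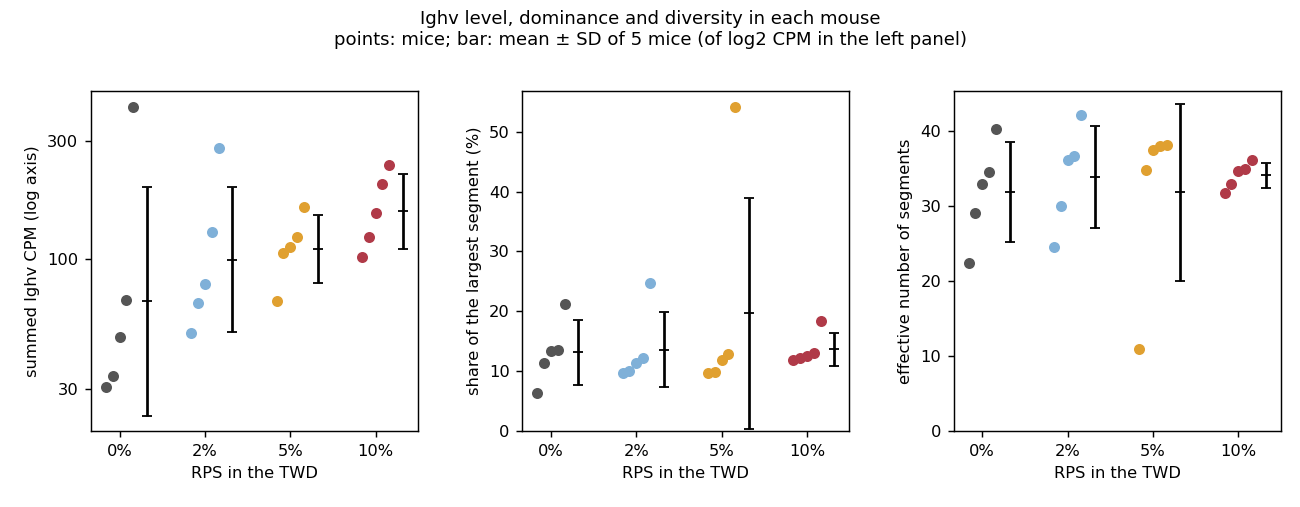
Summed Ighv CPM (left, log axis), share of Ighv counts held by the largest segment (middle, %) and effective number of segments (right) in each of 20 mice, by diet. Points are mice and bars are the mean ± SD of 5 mice; RS10_703 stands at 411.9 CPM among the 0% RPS mice, and RS10_717 at 54.1% and 10.9 segments among the 5% RPS mice.

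Segment use was broad in most mice. Between 60 and 79 of the 82 segments had at least 1 count in a mouse, 38 were detected in all 20 mice, and 4 were detected in under 10. The largest segment of a mouse held a median of 12.2% of its Ighv counts, and the 10 largest together held 46.9 to 73.9%. The effective number of segments, which is the exponential of the Shannon entropy and equals the number of equally used segments with the same diversity, had a median of 34.8. Evenness as Pielou's index, which is 1 when all 82 are used equally, had a median of 0.805.

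By diet, the effective number was 32.9, 22.3, 40.3, 29.1 and 34.5 in the 5 mice at 0% RPS and 34.7, 33.0, 34.9, 31.7 and 36.1 in those at 10% RPS. In order of rising RPS, the 4 diets had means of 31.8 ± 6.67, 33.9 ± 6.79, 31.8 ± 11.8 and 34.1 ± 1.72 (SD, n = 5 each). The differences between diets were smaller than the spread within the 0, 2 and 5% RPS groups, and the 10% RPS mice lay inside the range of the 0% RPS mice. By the description label the spread was narrowest at 10% RPS, where all 5 mice fell between 31.7 and 36.1. By the treatment label RS10_748, at 24.5, belongs to 10% RPS, and that group then starts at 24.5. After thinning every mouse to the smallest total of 988 Ighv counts, the means were 31.4 ± 6.94 at 0% RPS and 33.1 ± 1.67 at 10% RPS (SD, n = 5 each).

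The share of the largest segment likewise overlapped between diets. It was 13.5, 21.2, 6.28, 13.3 and 11.4% in the mice at 0% RPS, in the order given above, and 13, 18.4, 12.2, 11.9 and 12.5% in those at 10% RPS. The means were 13.1 ± 5.38%, 13.6 ± 6.29%, 19.6 ± 19.3% and 13.6 ± 2.71% (SD, n = 5 each) at 0, 2, 5 and 10% RPS. The mean at 5% RPS rested on RS10_717 and was 11 ± 1.56% without it (SD, n = 4).

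Strong dominance was seen in few mice. In RS10_717, Ighv1-82 (the segment printed first above) held 2659 of 4918 Ighv counts, or 54.1% (exact Clopper-Pearson 95% interval 52.7 to 55.5%), so that a single segment made up most of the counts and the effective number was 10.9. In RS10_748, Ighv1-80 held 24.7% (22.8 to 26.6%). In RS10_703, Ighv1-19 held 21.2% (20.5 to 21.9%) and Ighv1-26 a further 17.4%. The flattest mouse by this measure was RS10_704, where Ighv3-6 led with 6.28% (4.84 to 7.97%). These intervals treat every read as independent and do not cover the spread between mice. The reads carried no molecular identifiers, so copies of the same molecule cannot be told apart and the intervals may be too narrow. RS10_717 and RS10_748 are among the 3 mice whose labels disagree on the diet.

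**Figure D2:**
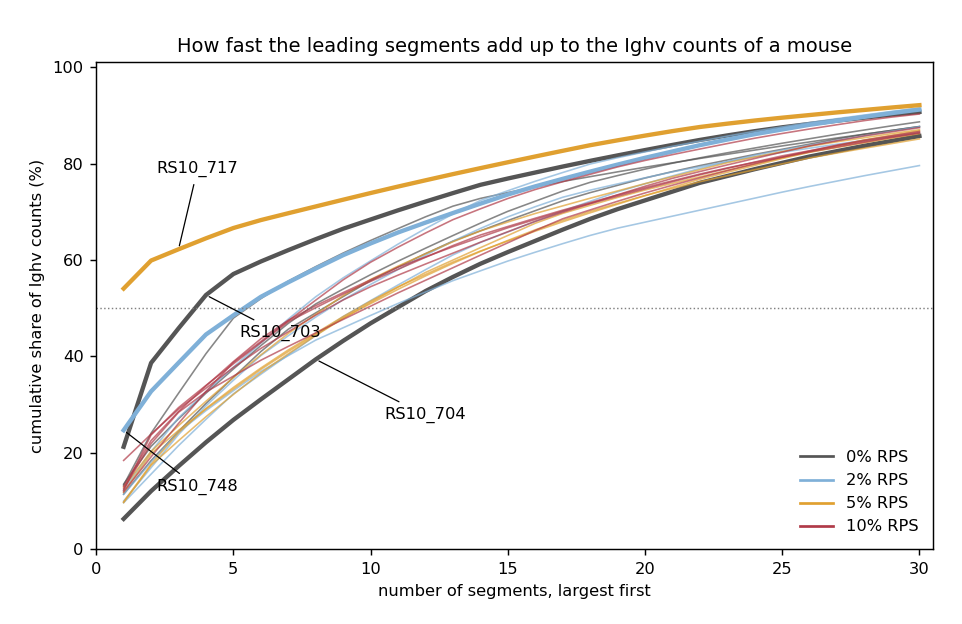
Cumulative share of Ighv counts (y, %) against the number of segments added from the largest down (x), 1 line per mouse, coloured by diet, with 4 mice drawn thick and named. The line of RS10_717 starts at 54.1% with its first segment and that of RS10_704 at 6.28%.

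In total, 12 segments led at least 1 mouse. Ighv1-39 led 4 mice (RS10_716, RS10_719, RS10_727 and RS10_731), Ighv1-26 led 3 (RS10_707, RS10_708 and RS10_729), and Ighv1-82, Ighv3-6 and Ighv1-9 led 2 each. Ighv1-19, Ighv1-22, Ighv1-58, Ighv1-80, Ighv10-3, Ighv14-3 and Ighv15-2 led 1 each. The leading segment of every mouse was the same when counts were divided by exon length, which ranged from 347 to 480 bases. By share of counts per exon base, the highest means over the 20 mice were 6.75% for Ighv1-39, 6.29% for Ighv1-26, 5.53% for Ighv1-82 and 4.51% for Ighv3-6. The mean of Ighv1-82 was carried by RS10_717, since its median share was 2.48%.

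The common segments varied widely between mice. Ighv1-39 ranged from 1.2 to 18.4% of Ighv counts, with a mean of 6.48 ± 4.48% (SD, n = 20). Ighv1-26 ranged from 2.28 to 17.4%, and these were the only members that held at least 1% in all 20 mice. Ighv3-6, Ighv1-9, Ighv7-3, Ighv1-64, Ighv1-22, Ighv1-80, Ighv1-81 and Ighv5-17 completed the 12 highest means together with Ighv1-82 and Ighv1-19. The 12 held 48.3% of Ighv counts in the average mouse, and the 41 members with the lowest means held 14%. For 11 members the share stayed under 1% in every mouse.

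**Figure D3:**
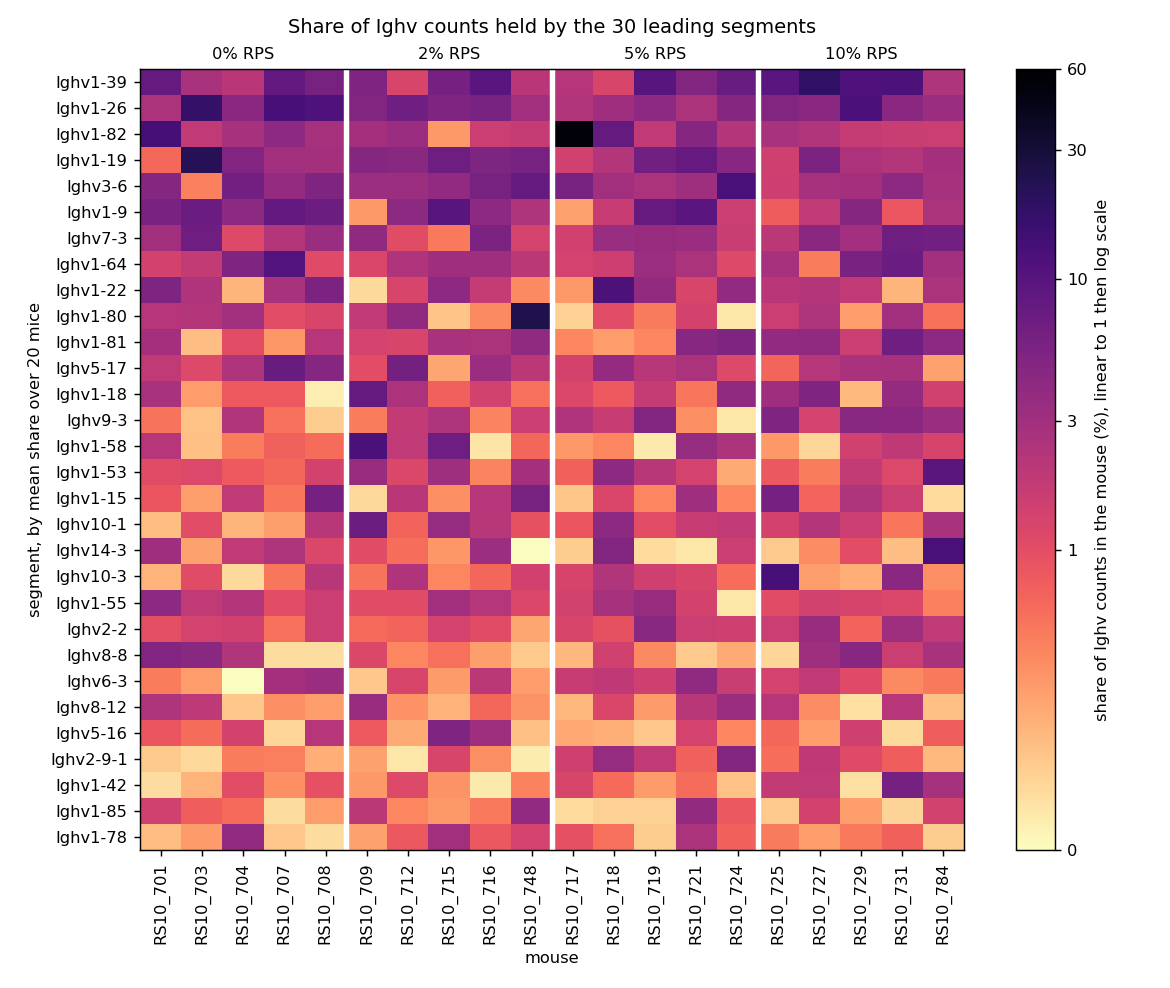
Share of Ighv counts (colour, %, linear to 1 and log above) held by the 30 segments with the highest mean share (rows) in each of 20 mice (columns, grouped by diet). Single dark cells mark segments that were large in 1 mouse, such as Ighv1-82 in RS10_717 (54.1%), Ighv1-80 in RS10_748 (24.7%) and Ighv10-3 in RS10_725 (13%).

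Many segments were high in a single mouse. For 45 of the 82 members the highest mouse was at least 10 times the median mouse in CPM. This count is partly set by the rule, which keeps a segment through the count of its highest mouse alone. The ratio also carries the total Ighv level of a mouse, which was highest in RS10_703, and it was not computed over all genes. Among members with a mean of at least 1 CPM, the 8 with the highest ratio were Ighv1-5 (80.8 times, RS10_725), Ighv1-82 (37.1 times, RS10_717), Ighv10-3 (31.1 times, RS10_725), Ighv1-7 (29.3 times, RS10_703), Ighv1-19 (25.3 times, RS10_703), Ighv8-8 (24.1 times, RS10_703), Ighv5-16 (21.6 times, RS10_715) and Ighv1-58 (19.8 times, RS10_715). Their highest mice were 4, with 1 from each diet by the description label. By the treatment label RS10_717 is 2% RPS and RS10_725 is 5% RPS, and the 10% RPS diet is then not among them. Ighv15-2 was the largest segment of RS10_712 with 173 counts and 11.4%, but had at least 1 count in only 11 mice and a median share of 0.0503%. Ighv14-3 led RS10_784 with 12.5% against a median of 0.787% in the other 19 mice.

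The high segments did not take their nearest relatives with them in every case. In RS10_717, where Ighv1-82 stood at 54.1%, the nearest segment Ighv1-80 held 0.244%, below its median of 1.35% in the other mice. In RS10_748, where Ighv1-80 stood at 24.7%, Ighv1-82 held 1.70% against a median of 2.65%. In RS10_703 both Ighv1-19 and its nearest segment Ighv1-26 were high, at 21.2 and 17.4%. Of the 18 mice whose leading segment has its nearest relative among the 82, the relative was at or below its median in the other mice in 12. The shares of a mouse add up to a fixed whole, so a high leader lowers every other share. These shares therefore cannot show whether relatives moved with the leader, and this was not tested.

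The diets were compared segment by segment with edgeR's quasi-likelihood test on all genes, in which 63 of the 82 members passed the filter on low counts. At 10% against 0% RPS, 0 of the 63 members passed an adjusted p of 0.05 and a 1.5-fold change, where 0.0391% of all 17893 tested genes did. At an unadjusted p under 0.05, 16 members were higher, where 7.32% of all tested genes were, and 1 was lower. The median log2 fold change was 0.62 over the 63 members, of which 48 were above 0, and -0.01 over all tested genes. These counts depended on the labels: with the treatment label 9 members were higher at that unadjusted p and 36 were above 0, and without the 3 mice of disagreeing labels the median over 65 members was 0.32. Without RS10_725 alone it was 0.30, without RS10_708 0.39, and without RS10_703 it was higher, as given below. DESeq2 on the same counts, the tool and thresholds of the study's methods, called 6 members higher and 0 lower, where 0.811% of 25901 genes were called. The 6 were Ighv1-42, Ighv1-77, Ighv1-81, Ighv2-5, Ighv4-1 and Ighv9-3. All but Ighv2-5 were also picked for description from a test on these same samples, so they are not independent evidence of a direction. With the treatment label DESeq2 called 0 members, and without the 3 mice of disagreeing labels 1 (Ighv1-81). DESeq2 gave an adjusted p for 59 of the 82 members.

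Ighv1-81 was at 1.36, 1.42, 0.311, 0.387 and 0.723 CPM in the 5 mice at 0% RPS and at 9.24, 4.84, 3.16, 10.2 and 4.31 CPM in those at 10% RPS. All mice at 10% RPS were above all mice at 0% RPS. The log2 fold change was 2.91 (SE 0.71), with an adjusted p of 0.0869 by edgeR's quasi-likelihood test and of 0.00500 by DESeq2. Ighv9-3 was at 0.368, 1.36, 0.714, 0.536 and 0.0904 CPM at 0% RPS and at 12.8, 1.58, 8.83, 6.68 and 3.37 CPM at 10% RPS, again without overlap. Its log2 fold change was 3.44 (SE 0.93), with adjusted p of 0.103 by edgeR and 0.0120 by DESeq2. The group means of Ighv9-3 were 0.614 ± 0.477, 2.01 ± 2.65, 2.50 ± 2.50 and 6.65 ± 4.44 CPM (SD, n = 5 each) at 0, 2, 5 and 10% RPS, and the 2 and 5% RPS mice overlapped with both ends.

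Ighv1-77 and Ighv4-1 were near the detection limit in the mice without RPS. Ighv1-77 had 1, 7, 1, 2 and 0 counts at 0% RPS and 97, 2, 47, 21 and 17 counts at 10% RPS, and 4 of the 5 mice at 10% RPS were above all mice at 0% RPS. The log2 fold change was 4.38 (SE 1.28), with adjusted p of 0.124 by edgeR and 0.0195 by DESeq2. At 2% RPS, RS10_715 held 112 counts of Ighv1-77 and the other 4 mice 1 to 19, so the highest mouse of this segment was not on 10% RPS. Ighv4-1 was at 0.0850, 0.190, 0.0311, 0.476 and 0.0904 CPM at 0% RPS and at 4.15, 1.74, 0.939, 0.349 and 1.84 CPM at 10% RPS, with overlap through RS10_707 and RS10_731. Its log2 fold change was 3.34 (SE 0.90), with adjusted p of 0.103 by edgeR and 0.0104 by DESeq2.

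**Figure D4:**
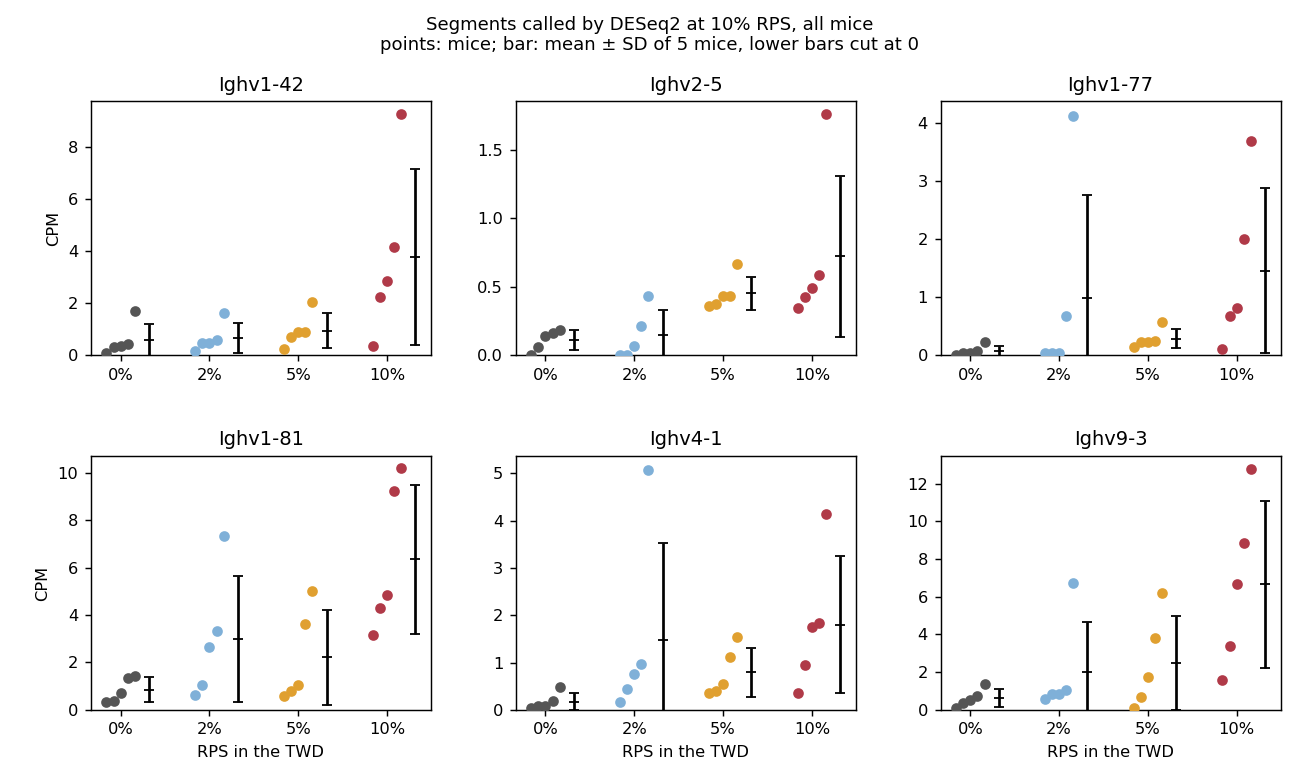
CPM (y) of the 6 segments that DESeq2 called higher at 10% than at 0% RPS, in each of 20 mice by diet (x). Points are mice and bars the mean ± SD of 5 mice; the 10% RPS mice all lie above the 0% RPS mice for Ighv1-81, Ighv2-5 and Ighv9-3 and overlap with them for Ighv1-42, Ighv1-77 and Ighv4-1.

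Over all 4 diets, a linear trend on RPS percent was called by edgeR at an adjusted p of 0.05 for 2 of the 63 members, both rising, where 2.10% of all tested genes were called. A further 11 members rose at an unadjusted p under 0.05, giving 13 in all, where 9.0% of all tested genes rose at that level, and 1 fell. DESeq2 called 6 members with a rising trend (Ighv1-42, Ighv1-74, Ighv1-81, Ighv10-3, Ighv14-2 and Ighv9-3), where 3.81% of 25874 genes were called. It called 0 with the treatment label and 2 (Ighv1-42 and Ighv1-75) without the 3 mice of disagreeing labels. With all mice, DESeq2 gave no adjusted p for the trend of Ighv2-5, so that segment could not be called. Neither member called by edgeR kept its call with the treatment label, with adjusted p of 0.257 for Ighv1-42 and 0.204 for Ighv2-5, or without the 3 mice of disagreeing labels, with 0.0850 and 0.0569.

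Ighv1-42 was at 0.0850, 1.68, 0.311, 0.417 and 0.331 CPM at 0% RPS and at 4.15, 2.23, 0.341, 9.28 and 2.82 CPM at 10% RPS. RS10_731 was the highest and RS10_729 lay inside the range of the mice without RPS. At 2% RPS the 5 mice ran from 0.143 to 1.62 CPM and at 5% RPS from 0.223 to 2.02 CPM. The log2 level rose by 0.29 per RPS percent, with an edgeR adjusted p of 0.0276, and the adjusted p was 0.106 without RS10_731, 0.0736 without RS10_784, 0.0611 without RS10_708 and 0.0541 without RS10_725. At 10% RPS alone its log2 fold change was 2.75 (SE 0.78), with adjusted p of 0.119 by edgeR and 0.0310 by DESeq2.

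Ighv2-5, the other segment with a trend, was rare. It had 5, 5, 0, 2 and 6 counts in the mice without RPS. With 2% RPS the counts were 0, 13, 0, 6 and 2, with 5% RPS 13, 20, 11, 12 and 8, and with 10% RPS 9, 9, 10, 15 and 45. In CPM the lowest mouse at 5 or 10% RPS (0.342) was above the highest at 0% RPS (0.181). Its log2 level rose by 0.27 per RPS percent, with an edgeR adjusted p of 0.0241 and of 0.127 without RS10_784. Its log2 fold change at 10% RPS was 2.70 (SE 0.66), with adjusted p of 0.0840 by edgeR and 0.00919 by DESeq2.

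Of the 63 tested members, Ighv1-81, Ighv2-5, Ighv3-6 and Ighv9-3 were higher in all 5 mice at 10% RPS than in any mouse at 0% RPS, where 1.13% of all tested genes were. With the treatment label this held for Ighv1-81 and Ighv3-6 only, since RS10_748 then counted as 10% RPS and held 0.0648 CPM of Ighv2-5 and 1.04 CPM of Ighv9-3. Ighv3-6 was the most even of them, at 2.24, 2.82, 1.93, 2.50 and 1.81 CPM at 0% RPS and 3.54, 3.37, 5.67, 6.48 and 2.82 CPM at 10% RPS. Its log2 fold change was 0.96 (SE 0.45) with an edgeR adjusted p of 0.321, so it did not pass the test, and its levels at 2 and 5% RPS reached 10.8 and 9.45 CPM. At 5% RPS, Ighv2-5, Ighv2-9-1 and Ighv3-6 did not overlap with 0% RPS, where 0.464% of all tested genes were higher in all mice. At 2% RPS this held for 0 members and 0.112% of all tested genes. No tested member was lower in all mice of an RPS diet.

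The other members with large fold changes at 10% RPS had an edgeR adjusted p above 0.05 and overlapped between diets. The 8 largest among members with a mean of at least 1 CPM ran from 2.15 for Ighv2-9-1 to 3.44 for Ighv9-3 on the log2 scale and included Ighv1-74 (3.21), Ighv10-3 (2.79) and Ighv1-18 (2.27). Ighv10-3 rested on RS10_725, which held 31.3 CPM against 0.628 to 6.60 CPM in the other mice at 10% RPS, and its log2 fold change was 0.94 without that mouse. Ighv1-39, the most used segment, was at 3.80, 10.7, 0.621, 5.62 and 1.96 CPM at 0% RPS and at 22.8, 22.6, 23.0, 18.3 and 2.47 CPM at 10% RPS, a log2 fold change of 1.97 (SE 0.86) with an adjusted p of 0.290. In 4 of the 5 mice at 10% RPS it was above all mice at 0% RPS, while RS10_784 lay inside their range.

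On the other side, Ighv1-19, Ighv1-7, Ighv1-9 and Ighv5-9 had the lowest log2 fold changes at 10% RPS among members with a mean of at least 1 CPM, at -2.11, -1.47, -1.23 and -0.89, with edgeR adjusted p from 0.406 to 0.688. All 4 turned positive when RS10_703 was left out. Ighv1-19 was at 87.5 CPM in RS10_703 and at 0.397 to 2.05 CPM in the other 4 mice at 0% RPS, and its log2 fold change was 1.79 without that mouse. Without RS10_703, 66 members passed the filter, 63 of them had a log2 fold change above 0 at 10% RPS, and the median was 1.79. Of all 18001 tested genes, 8833 were above 0. By edgeR 1 member was called (Ighv1-42), where 109 of all 18001 tested genes were. By DESeq2 15 members were called, where 339 of 25882 genes were. In the fits with all mice, 7 of 17893 and 210 of 25901 genes were called. The DESeq2 fit without RS10_703 was chosen after seeing the data.

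At 5% and at 2% against 0% RPS, edgeR called 0 members and 0% and 0% of all tested genes. At an unadjusted p under 0.05, 10 members were higher and 2 lower at 5% RPS, where 4.69% of all tested genes were higher, and 7 were higher and 0 lower at 2% RPS, where 0.693% were higher. DESeq2 also called 0 members in both comparisons, where 0.120% and 0.00386% of 25901 genes were called. The median log2 fold change over the members was 0.28 at 5% RPS and 0.33 at 2% RPS. At 2% RPS it was -0.24 without RS10_715, where 27 of 65 members were above 0, and at 5% RPS it was 0.73 with the treatment label. Without RS10_703 the medians were 1.42 for 5% RPS and 1.38 at 2% RPS. The 3 comparisons share the same 5 mice at 0% RPS, RS10_703 included.

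By subgroup, the families into which V segments fall by sequence, Ighv1 held 41 of the 82 members (50%) and 62.1 ± 7.23% of Ighv counts (SD, n = 20), from 51.1% in RS10_712 to 74.5% in RS10_717. Ighv5 followed with 6.59 ± 3.50% from 8 members, Ighv3 with 5.50 ± 2.91% from 5, and Ighv2 with 4.45 ± 3.13% from 7. The share of Ighv1 was 64.5 ± 5.29% at 0% RPS and 60 ± 4.89% at 10% RPS, which differed by less than the spread between mice. Ighv5 was at 7.43 ± 2.09% at 0% RPS, from 4.66 to 9.63%, and at 3.70 ± 1.31% at 10% RPS, from 2.22 to 5.24%. The ranges overlapped between 4.66 and 5.24%. It was at 9.47 ± 4.88% at 2% RPS and 5.74 ± 2.39% at 5% RPS (SD, n = 5 each), so the share did not fall steadily. The lowest value was in RS10_725, 5% RPS by the treatment label, and these shares were not regrouped by that label. A lower share does not by itself mean a lower Ighv5 level. Ighv9, which includes Ighv9-3, was at 1.77 ± 2.25% at 0% RPS and 4.74 ± 1.48% at 10% RPS, with overlap.

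By position, the 28 members nearest to the J segments (158 to 824 kb from Ighj1) held 21.9 ± 6.50% of Ighv counts, the next 27 (to 1507 kb) held 46.4 ± 9.52%, and the 27 farthest (to 2570.2 kb) held 31.7 ± 11.1% (SD, n = 20). The nearest block was at 20.1 ± 2.63% at 0% RPS and at 24.6 ± 7.73% at 10% RPS (SD, n = 5 each), and the groups overlapped. Position and subgroup are tied together, since the 41 Ighv1 members all lie beyond 1057 kb. RS10_717 had the highest farthest-block share, 65.4%, and Ighv1-82 lies in that block.

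**Figure D5:**
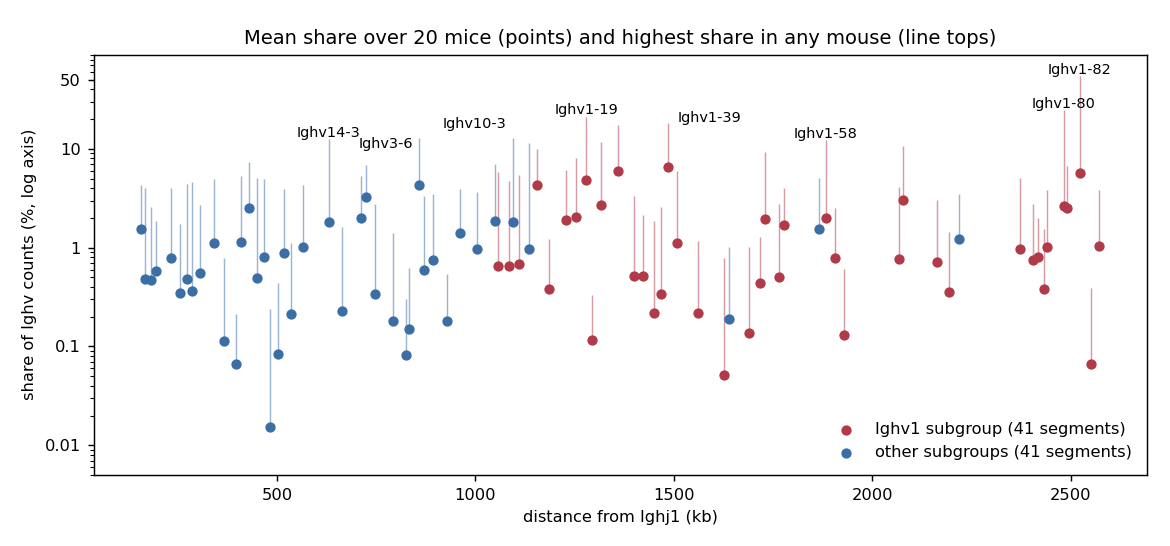
Mean share of Ighv counts over 20 mice (points, %, log axis) and highest share in any mouse (top of each line) against the distance of each of the 82 segments from Ighj1 (kb). Ighv1 members are in red and other subgroups in blue; the tallest line is Ighv1-82 at 54.1%.

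Segment use differed about as much between mice of 1 diet as between diets. The Bray-Curtis distance between the shares of 2 mice, which is 0 for identical use and 1 for no shared segment, had a median of 0.476 over the 40 pairs on the same diet and of 0.491 over the 150 pairs on different diets. Within diets the mean was 0.473 at 0% RPS, 0.486 at 2%, 0.518 at 5% and 0.421 at 10% RPS, over 10 pairs each, and pairs of 1 mouse each from 0 and 10% RPS had a mean of 0.487. The 10% RPS pairs were the closest by the description label, ranging from 0.353 to 0.490 inside the range over all pairs of 0.312 to 0.708. RS10_748, 10% RPS by the treatment label, had a mean distance of 0.545 to all other mice, and the pairs were not regrouped by that label. RS10_707 and RS10_708, both led by Ighv1-26, were the closest pair. The pair farthest apart was RS10_703 and RS10_717. By the description label, the nearest mouse was on the same diet for 8 of the 20 mice, RS10_725 among them. Same-diet pairs made up 40 of all 190 pairs, a smaller share than 8 of 20. Whether nearest mice shared a diet more often than by chance was not tested.

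The kappa light chain variable segments (Igkv), the partner chain in most mouse antibodies, were also used unevenly. Over 84 Igkv segments with at least 10 counts in a mouse, the effective number was 31.5 ± 8.28 at 0% RPS and 30.9 ± 8.44 at 10% RPS (SD, n = 5 each), and 13 different segments led the 20 mice. In RS10_717, Igkv4-55 held 37.8% of Igkv counts against a median of 0.542% in the other mice, beside Ighv1-82 at 54.1%. In RS10_703, Igkv12-44 held 21.2% against 2.54%, and in RS10_748, Igkv3-5 held 16.8% against 0.324%. Mice without such Ighv dominance had wide gaps too, such as RS10_721 with Igkv4-57-1 at 17.8% against 0.857%. RS10_784 was led by Igkv14-100 at 24.6% against 0.357%, with an effective Igkv number of 19.6 but an effective Ighv number of 36.1. RS10_725, led by Ighv10-3, held 38.7 lambda V counts per 100 Igkv counts, against 3.62 to 15.1 in the other 19 mice. Bulk counts do not pair heavy with light chains.

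The sum of the heavy chain constant genes, most of it Igha, had a higher mean at 10% RPS, and the diets overlapped. Their summed level was 1187 ± 1298 CPM without RPS and 2261 ± 839 CPM at 10% RPS (SD, n = 5 each), with RS10_703 at 3495 CPM. Ighv counts per 100 constant counts were 8.38 ± 2.57, 8.75 ± 1.98, 7.98 ± 1.63 and 7.30 ± 0.664 (SD, n = 5 each) at 0, 2, 5 and 10% RPS, and all diets overlapped. Of 8 constant genes, 7 were tested and 0 were called by edgeR at any RPS level or over the trend. Ighg1, the constant region of IgG1, was at 4.61 ± 3.17 CPM without RPS and 37.5 ± 12.3 CPM with 10% RPS (SD, n = 5 each), a log2 fold change of 3.03 (SE 0.71) with an adjusted p of 0.0837 by edgeR and 0.00202 by DESeq2. Of the others, Ighg2b, Ighg2c and Ighg3 had lower means at 10% than at 0% RPS and were not called. Igha averaged 1098 ± 1241 CPM without RPS and 2130.0 ± 831 CPM with 10% RPS, and did not pass the test (adjusted p 0.410, edgeR).

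The levels of genes that make or shape antibody mRNA stood beside these values as follows. Of 14 genes listed for plasma cells, 0 were called at 10% RPS by edgeR, and the median log2 fold change was 0.58. At an unadjusted p under 0.05, 6 were higher, where 7.32% of all tested genes were. Over the trend edgeR called 2, Tnfrsf17 (the survival receptor BCMA, adjusted p 0.0279) and Cd38 (adjusted p 0.0346), where 2.10% of all tested genes were called. Tnfrsf17 was highest in RS10_725, the mouse with the highest sum of this list, and Cd38 in RS10_719. Which cells these transcripts came from was not tested. Jchain, which links IgA and IgM into polymers, was at 211 ± 232 CPM without RPS and 451 ± 168 CPM with 10% RPS (SD, n = 5 each), with an adjusted p of 0.338. Of 8 tested genes for the expression and diversification of rearranged V segments, 0 were called in any comparison. At 10% RPS 2 of them were higher at an unadjusted p under 0.05, where 7.32% of all tested genes were. Among the marker lists, edgeR called 0 of 10 B cell, 0 of 5 germinal centre, 0 of 8 plasma cell, 0 of 6 T cell, 0 of 5 smooth muscle and 0 of 3 tested pancreas acinar genes at 10% RPS, and 1 of 5 colonocyte genes, where 0.0391% of all tested genes were called. By the description label the colonocyte markers rose with RPS: 4 of 5 were called over the trend, where 2.10% of all tested genes were. Their sum ran from 3808 to 5574 CPM in the mice without RPS and from 6069.9 to 6951 CPM with 10% RPS, without overlap. By the treatment label the 0 and 10% RPS sums overlapped, since RS10_748, at 5386 CPM, lay below RS10_704 at 5574 CPM. With the treatment label edgeR called 0 of all 17893 tested genes at 10% RPS and over the trend, so none of the calls in these lists held. The summed plasma cell markers were 620.3 ± 244 CPM without RPS and 924 ± 169 CPM at 10% RPS (SD, n = 5 each). The part of either marker list in the Ighv values was not tested.

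Upstream of the segments, the promoter element that Ighv genes are known for, the octamer ATGCAAAT (bound by the Oct factors), was searched on both strands from 250 bases before to 50 bases after each start in GRCm39. It was found at 67 of the 82 members (81.7%), against 2.30% of windows of the same length at the starts of all 78284 annotated genes, and lay a median of 107 bases before the start. The recombination heptamer CACAGTG was found without mismatch directly after 65 of the 82 coding segments. A match is a description of the letters only. The windows around the octamer are shown for 4 segments that led mice or were most used, Ighv1-82 (chr12:115916664-115916723), Ighv1-80 (chr12:115876470-115876529), Ighv1-39 (chr12:114878727-114878786) and Ighv10-3 (chr12:114487595-114487654), on the minus strand from 5′ to 3′ with the octamer in capitals.
Ighv1-82: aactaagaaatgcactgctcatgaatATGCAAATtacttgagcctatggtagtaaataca
Ighv1-80: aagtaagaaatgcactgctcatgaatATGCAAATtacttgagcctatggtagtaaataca
Ighv1-39: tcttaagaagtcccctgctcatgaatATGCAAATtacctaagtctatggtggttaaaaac
Ighv10-3: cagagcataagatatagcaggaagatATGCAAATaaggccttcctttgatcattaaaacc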

How the data were processed

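Total RNA from 20 distal colon pieces was made into stranded mRNA libraries and sequenced as single-end 50-base reads. Per the methods, the authors removed low-quality and ambiguous reads and mapped the rest with CLC Genomics Workbench to GRCm39 (the build in the submitters' processing notes); how reads matching several segments, or strand, were counted is not given in the sources used here. The authors deposited raw counts per gene, 1 column per mouse.

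Ensembl identifiers were matched to GENCODE vM39. The counts were fitted over all genes with edgeR 4.0.16 (R 4.3.3; quasi-likelihood test, trimmed mean of M values, filterByExpr with a minimum count of 10), comparing each RPS level with 0% RPS and testing a linear trend. A call needed a Benjamini-Hochberg adjusted p of 0.05 or less and, between diets, a 1.5-fold change. The SE given with a log2 fold change was derived from the edgeR test. It is the absolute log2 fold change divided by the square root of the F statistic. DESeq2 1.42.0, other scalings, no filter, the treatment label and leaving out mice were alternatives. The fit was tested on simulated data. Shares are percent of the summed counts of the 82 members; summed levels, shares, diversity and distances are given without a test, since they are scores over the members.

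Named were the 12 segments with the highest mean share, the 8 largest rises and 4 largest falls at 10% RPS with a mean of at least 1 CPM, those called, those the study lists, the leaders of mice and the 8 highest ratios of the highest to the median mouse. The members and lists were chosen with earlier results of these data known. Depth was 18429493 to 34974230 counts per mouse. The labels do not say how mice were caged, and p-values measure the spread between mice only.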

Additional observations from a re-analysis of the deposited data

Results flagged for a closer look

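Within each diet of 5 mice, the highest and lowest mouse were compared with the rest by the gap to the nearest mouse over the range (Dixon's test at 95%). This set apart 23 of 136 groups of values, where chance sets apart about 1 in 20. The excess says nothing in itself, since many of the segments were named for being high in 1 mouse and several values come from the same mouse. The summed Ighv level of RS10_703 was 411.9 CPM at 0% RPS. The largest segment held 24.7% in RS10_748 at 2% RPS, 54.1% in RS10_717 at 5% RPS and 18.4% in RS10_727 at 10% RPS. RS10_717 also stood apart in its effective number of segments, 10.9, and in the share of its 10 largest segments, 73.9%.

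The other 17 were shares of single segments. At 0% RPS, RS10_701 stood apart with 13.5% for Ighv1-82 and 4.85% for Ighv15-2, RS10_703 with 21.2% for Ighv1-19, 1.91% for Ighv1-7 and 1.24% for Ighv1-5, and RS10_704 with 2.33% for Ighv9-3. At 2% RPS, RS10_709 stood apart with 8.01% for Ighv1-18 and 5.44% for Ighv1-7, RS10_712 with 11.4% for Ighv15-2 and 0.853% for Ighv2-5, and RS10_748 with 24.7% for Ighv1-80 and 1.89% for Ighv1-5. At 5% RPS, RS10_717 stood apart with 54.1% for Ighv1-82. At 10% RPS, RS10_727 stood apart with 0.266% for Ighv15-2, RS10_729 with 12.2% for Ighv1-26, and RS10_784 with 12.5% for Ighv14-3 and 1.72% for Ighv2-5.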

How the results depend on the processing

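No paired analysis was possible because each mouse number belongs to 1 animal. The number of segments called at 10% RPS was 0 by edgeR and 6 by DESeq2. Leaving out each mouse in turn gave 0 to 1 at 10% RPS (1 without RS10_703 and 1 without RS10_727), 0 at 5% RPS and 0 at 2% RPS. Of all tested genes, 109 of 18001 were called at 10% RPS without RS10_703 and 188 of 18096 without RS10_727. The number with a trend was 2 by edgeR, 6 by DESeq2, 0 with the treatment label, 0 without the 3 mice whose labels disagree, and 0 to 7 when leaving out each mouse, with 0 without RS10_784, 1 without RS10_708, RS10_725 or RS10_731, 5 without RS10_715, 6 without RS10_727 and 7 without RS10_703. Trend calls over all tested genes moved too, from 375 of 17893 with all mice to 24 of 18084 without RS10_784. They were 487 of 18077 without RS10_715, 758 of 18001 without RS10_703 and 1148 of 18096 without RS10_727. Alternatives chosen after seeing the data gave 1 at 10% RPS and a trend for 6 when RS10_703, RS10_717 and RS10_721 were left out together, and DESeq2 without RS10_703 called 15 at 10% RPS, 1 at 5% RPS, 2 at 2% RPS and a trend for 11. Over all genes, the fit without the 3 libraries called 113 of 18110 at 10% RPS and 786 over the trend. DESeq2 without RS10_703 called 339, 25 and 3 of 25882 genes at 10, 5 and 2% RPS, and 1476 of 25869 over the trend. Also added afterwards, DESeq2 with the treatment label called 0 at 10% RPS and a trend for 0, and without the 3 mice of disagreeing labels 1 at 10% RPS and a trend for 2. Over all genes, DESeq2 with the treatment label called 15 of 25902 at 10% RPS and 156 of 25871 over the trend. Without the 3 mice it called 121 of 25782 and 693 of 25752. The cause of these shifts was not tested.

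Of the 16 segments described for their change with diet and followed over all settings, directions turned for 4, in settings without RS10_703. The other named segments were not followed. In edgeR without it, edgeR without the 3 libraries and DESeq2 without it, the log2 fold change at 10% RPS became 1.79, 1.79 and 1.81 for Ighv1-19, 0.23, 0.23 and 0.24 for Ighv1-9, 1.09, 1.09 and 1.12 for Ighv5-9, and 2.2, 2.2 and 2.21 for Ighv1-7, and the change per RPS percent for Ighv1-19 became 0.0316, 0.0300 and 0.0313. Over all settings that leave out 1 mouse, the lowest fold changes were -2.43 for Ighv1-19 (without RS10_701), -1.98 for Ighv1-9 and -1.37 for Ighv5-9 (both without RS10_729) and -2.40 for Ighv1-7 (without RS10_725), and the lowest change per RPS percent for Ighv1-19 was -0.223 (without RS10_727). In the same settings, the difference of 10% minus 0% RPS ran from -0.148 to 4.34 in effective number, from -1.24 to 2.50 percentage points in the largest share and from 0.922 to 1.86 in summed log2 CPM. With the treatment label these differences were 0.191, 2.8 and 0.838. Segments with few counts limit the comparison: 19 of the 82 were not tested.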

Other observations

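Lambda light chain variable segments were most abundant in RS10_725, with 3137 counts, where the other mice held 132 to 806. Ighg2c, the constant region of IgG2c, reached 33.4 CPM in RS10_703, against a mean of 1.70 ± 1.09 CPM (SD, n = 5) at 10% RPS.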
